A study of Arabidopsis thaliana with 6 samples.

Results

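The NAC family of transcription factors was examined in wild-type Arabidopsis thaliana seedlings before and after long cold. Its members were chosen by a rule on names, with earlier results of these data known. The rule took every gene whose name or TAIR symbol in the deposited table is NAC or ANAC followed by a number, counted once per gene identifier. This gave 54 of the 18368 genes used. Names are spelled as in the table, which writes *NAC59*, *NAC68*, *NAC69*, *NAC92* and *ANAC13* without a leading zero. Another 3 NAC genes carry other names there (*RD26*, *SOG1* and *NTL9*) and are described as non-members. Further NAC genes, among them *NTL8* and *CUC1*, were not analysed here.

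RNA sequencing compared 2 groups of 3 libraries, all of ecotype Col-0 and wild-type genotype, with no transgene or mutation in either group. Non-vernalized seedlings (0v) were taken at 11 days of age after growth at 22 °C. Vernalized seedlings (4v) were taken at 35 days, after 7 days at 22 °C and 28 days at 5 °C, which makes 4 weeks of cold. Age and temperature therefore cannot be told apart. The study used the comparison to ask which transcripts respond to long-term cold.

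NAC proteins share an N-terminal DNA-binding domain, named after the petunia gene NAM and the Arabidopsis genes *ATAF1*, *ATAF2* and *CUC2*, and differ in their C-terminal part, which activates or represses transcription. Members set organ boundaries, build the secondary wall of xylem, time leaf senescence and answer drought, low oxygen and protein damage. Some are held at a membrane by a C-terminal helix and enter the nucleus only once they are cut free, and the transcripts of others are cleaved under the direction of the microRNA miR164, so that the amount of transcript is only one of several controls on the family.

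The miR164 sites are shown because the members that carry them include the 2 with the most negative log2 fold changes of the family. The mature microRNAs below are from the RefSeq annotation of TAIR10.1, 5′ to 3′, with the seed (bases 2 to 8) in capitals; miR164a and the 5′ arm of miR164b are the same sequence, and that of miR164c ends in another base.

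miR164a: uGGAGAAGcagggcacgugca

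miR164c-5p: uGGAGAAGcagggcacgugcg

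The closest match to miR164a in each of these 5 members is given in the sense of the transcript, 5′ to 3′, with bases that pair with the microRNA in capitals (G and U were not counted as a pair). All 5 lie in coding sequence. The sites are at chr1:20947142-20947162 (minus strand) for *NAC021*, chr5:2436958-2436978 (plus) for *NAC079*, chr5:24701687-24701707 (minus) for *NAC100*, chr5:21902301-21902321 (minus) for *NAC098* and chr5:15858797-15858817 (minus) for *NAC92*.

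NAC021: aGCACGTaCCCTGCTTCTCCA

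NAC079: TttACGTGCCCTGCTTCTCCA

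NAC100: TctACGTGCCCTGCTTCTCCA

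NAC098: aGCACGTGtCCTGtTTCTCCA

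NAC92: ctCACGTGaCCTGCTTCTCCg

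These sites have 2 mismatches in *NAC021*, *NAC079* and *NAC100*, 3 in *NAC098* and 4 in *NAC92*. A site with at most 4 mismatches was found in 13 of 27440 protein-coding genes (0.0474%), 5 of which are members. The stretch opposite the seed is paired in full in 4 of the 5 and has 1 mismatch in *NAC098*. A match of letters is a description and does not show that a transcript is cleaved.

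Library depth sets what can be seen of this family, since many NAC transcripts are rare. The 2 deep libraries, 0v replicate 3 and 4v replicate 2, held 20005225 and 23141488 reads, and the 4 shallow ones between 1636687 and 1836717. One read is worth 2.84 to 3.41 normalized counts in a shallow library and 0.263 and 0.203 in the deep ones. In 17 of the 43 members that could be tested, at least 1 shallow library had under 10 reads. Among markers of the cells of a seedling, 1 of 4 mesophyll genes (*CA1*, lower in 4v), 1 of 3 tested phloem genes (*SUC2*, higher) and the 1 tested root gene (*PYK10*, lower) passed. Of all tested genes, 6.46% were called higher in 4v and 6.99% lower. The call of *SUC2* was lost without 0v replicate 1 or any 1 of the 4v libraries (limma, adjusted *p* at most 0.106), that of *CA1* without 4v replicate 1 (0.0528), and that of *PYK10* in each fit that left out 1 library except 0v replicate 3 (at most 0.0707). The summed level of the 4 mesophyll markers was 227270 to 384199 normalized counts in 0v and 264096 to 517504 in 4v. That of the phloem markers was 120 to 235 and 274 to 423, and that of the root markers 13476 to 19502 and 4956 to 7789. *PYK10* made nearly all of the root sum, since *COBL9* and *EXPA7* were too rare to test. *LHCB1.3* made most of the mesophyll sum. Within the mesophyll list the log2 fold changes were −1.96 (*CA1*), −0.13 (*RBCS1A*), 0.11 (*LHCB2.1*) and 0.58 (*LHCB1.3*). Within the phloem list they were −0.79 (*SEOR1*), 1.31 (*SUC2*) and 1.39 (*APL*). In whole seedlings fewer cells of a type and less RNA per cell cannot be told apart, and the part of such shifts in the NAC results was not tested.

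Few members of the family were called changed in 4v, which does not show that the others were unchanged. Of the 54 members, 43 had a mean of at least 10 normalized counts and were tested (limma on log2(normalized count + 4), two-sided, Benjamini-Hochberg adjustment over 16771 genes, 3 libraries against 3). With a threshold of 0.05 on the adjusted *p*, no member was called higher in 4v and 1, *NAC041*, was called lower, where 6.46% of all tested genes were higher and 6.99% lower. At an unadjusted *p* under 0.05, 6 members were higher and 4 lower, which is 23.3% of those tested beside 32% of all genes. edgeR on the recovered reads called 0 members higher and 1 lower, DESeq2 0 and 0, and limma-voom 3 and 4. Of all 16771 genes edgeR called 946 higher and 1202 lower, DESeq2 1101 and 1389, and limma-voom 2498 and 2318. The median log2 fold change of the tested members was 0.11, against 0.05 over all tested genes, with 28 positive and 15 negative values. Adding 4 before the log gave smaller fold changes of rare transcripts than adding 1, as for *ANAC13* (2.72 beside 4.0). They are not lower bounds. edgeR gave a smaller change than the main fit for *ANAC13* (2.04) and *NAC100* (−1.81 beside −1.99). For *NAC079* it gave a larger one (−1.44 beside −1.21). The size of the change, whatever its sign, had a median of 0.31 in the family and 0.46 over all genes, at a median standard error (SE) of 0.31 and 0.28. For 18 members (41.9%) the 95% interval lay within 2-fold in either direction, as it did for 39.5% of all genes. The normalized counts of the groups did not overlap for 10 members (23.3%), 5 higher (11.6%) and 5 lower (11.6%), beside 39.2% of all genes, 20.5% higher and 18.7% lower.

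**Figure D1:**
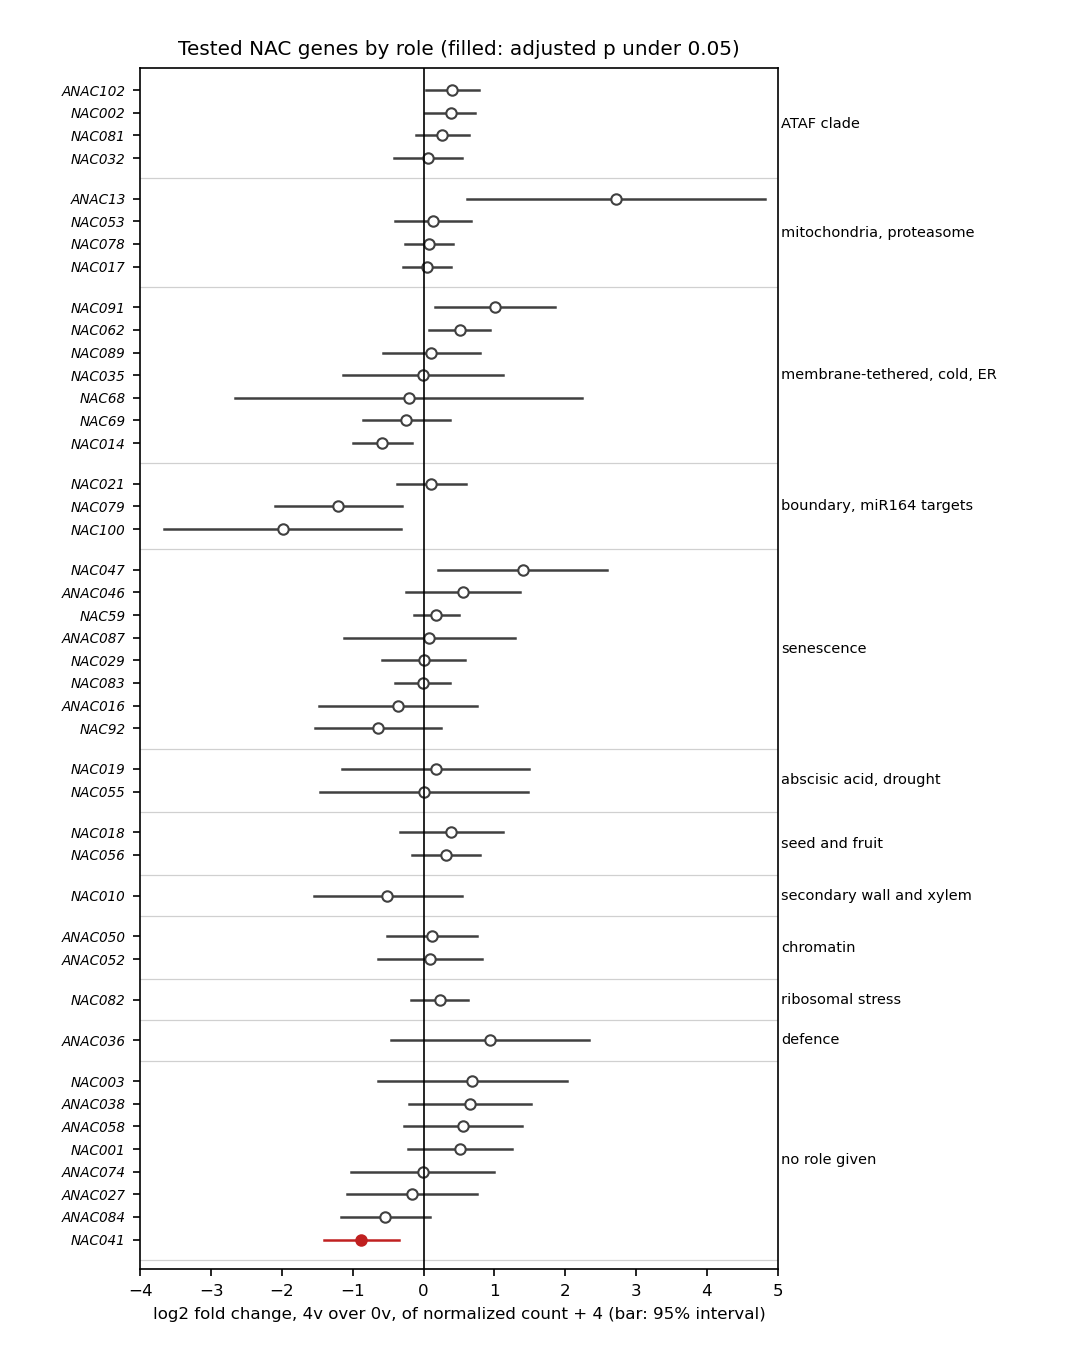
Log2 fold change of the 43 tested NAC genes, 4v over 0v, on the scale of log2(normalized count + 4), grouped by role. Points are estimates, bars their 95% intervals (3 libraries a group), and the 1 filled point is *NAC041*, the only member past an adjusted *p* of 0.05. Most points lie near 0 and the widest bars belong to rare transcripts such as *NAC68* and *ANAC13*.

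Levels within the family spanned a wide range. Per kilobase of exon, the mean over the 6 libraries ran from 1.24 normalized counts for *ANAC097* to 600.0 for *ANAC102*, with a median of 31.2 over the 54 members; 12 lay at 100 or above and 12 under 10. The 4 most abundant, *ANAC102*, *NAC083*, *NAC081* and *NAC002*, together made 41.4% of the family's summed level per kilobase. That sum was 3788, 3454 and 4135 normalized counts per kilobase in 0v replicates 1, 2 and 3 and 4338, 4728 and 3921 in the 4v replicates, so that the groups overlapped. Reads were found for 48, 50 and 54 members in the 0v libraries and for 49, 54 and 50 in the 4v libraries, with all 54 seen only in the 2 deep libraries.

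**Figure D2:**
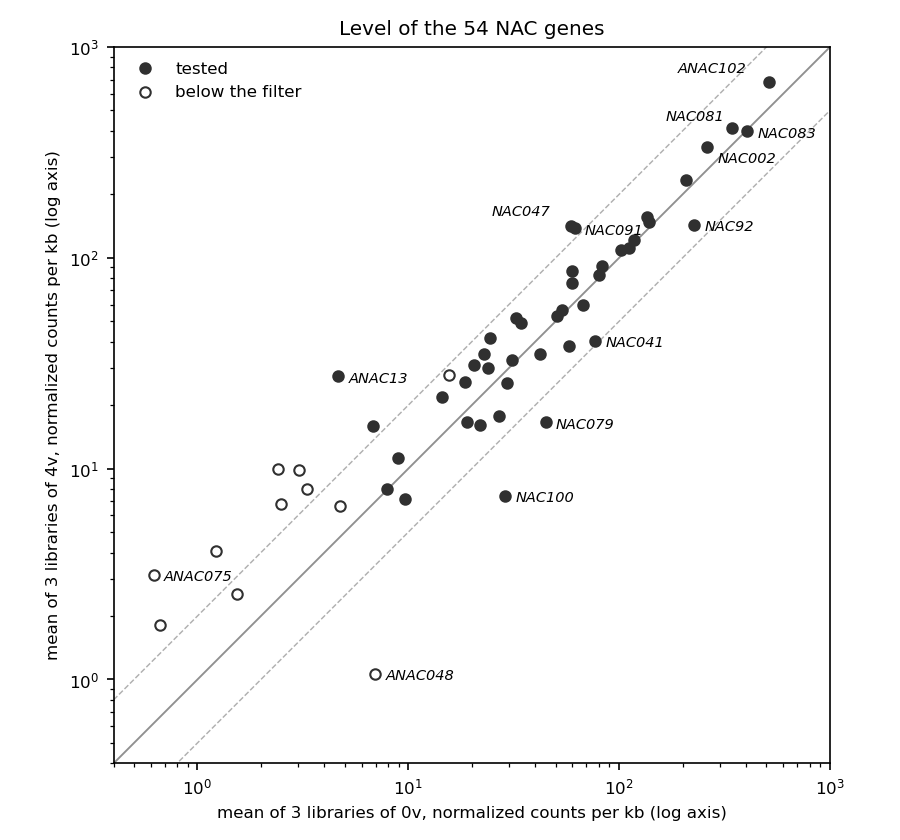
Mean level of each of the 54 NAC genes in 0v (horizontal) and 4v (vertical), in normalized counts per kilobase of exon on log axes, with 3 libraries behind each mean. The solid line marks equal levels and the dashed lines a 2-fold difference; open points are members below the filter. The abundant members lie along the solid line, and the points outside the dashed lines are mostly rare transcripts.

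The ATAF clade held 3 of the 4 most abundant members. *ANAC102*, known for a part in the germination of seeds under low oxygen, had 843, 736 and 867 normalized counts in 0v and 1242, 1118 and 900.0 in 4v. Each 4v library lay above each 0v library, but the lowest of 4v and the highest of 0v were close (log2 fold change 0.40, SE 0.16, adjusted *p* = 0.136 from limma). *NAC002* (*ATAF1*), a regulator of abscisic acid synthesis and senescence, showed the same order at 502, 371 and 419 in 0v and 582, 564 and 525 in 4v (log2 fold change 0.38, SE 0.15, adjusted *p* = 0.137 from limma). *NAC081* (*ATAF2*), which acts in defence and hormone turnover, had 594, 452 and 538 in 0v and 679, 674 and 548 in 4v, with overlapping groups. *NAC032*, the rarest of the clade, had a log2 fold change of 0.06 with a 95% interval from −0.42 to 0.54. The clade's share of the family's summed level per kilobase was 34.8%, 30.9% and 29.4% in 0v and 38.1%, 33.4% and 33.9% in 4v, which overlap. *ANAC102*, *NAC002* and *NAC081* each overlap a gene on the opposite strand, so that their counts may hold reads of it. Of the 31-base words of *NAC002*, 19.3% occur in other genes, of which *AT1G04043* on the opposite strand shares the most.

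Of the 4 members that act in signalling from mitochondria or the proteasome, 3 had 95% intervals within 2-fold of no change and 1 was widely scattered. *NAC017*, which carries the mitochondrial signal from the endoplasmic reticulum to the nucleus, had 270.0, 329 and 328 normalized counts in 0v and 305, 345 and 307 in 4v (log2 fold change 0.05, 95% interval −0.29 to 0.39). *NAC053* and *NAC078*, a pair that raises proteasome genes when the proteasome is impaired, had log2 fold changes of 0.13 (−0.40 to 0.67) and 0.08 (−0.26 to 0.42). *NAC078* overlaps *AT5G00965* and *AT5G04420* on the opposite strand, and 2.28% of its 31-base words occur in other genes. *ANAC13*, which binds the promoters of genes induced by mitochondrial dysfunction, had 0, 0 and 27.4 normalized counts in 0v and 24.4, 82.7 and 53.9 in 4v. The groups overlapped because the deep 0v replicate 3 lay above 4v replicate 1, whereas 0v replicates 1 and 2 held no read of it. At 2.72 its log2 fold change was the largest of the family (SE 0.89, adjusted *p* = 0.0866, limma). It passed without 0v replicate 3 (3.71, adjusted *p* = 0.0122, limma), the only 0v library with reads of it. Leaving out any other library gave adjusted *p* of 0.132 to 0.232 (limma), and edgeR gave 0.232 and DESeq2 0.236. *ANAC13* lies at chr1:11911631-11913947 of TAIR10 and overlaps *AT1G32880* on the opposite strand.

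Genes known to be raised by mitochondrial dysfunction, which include targets of *ANAC13* and *NAC017*, were higher in part. Of 9 listed, 8 were tested, 3 were higher, none was lower and 5 did not pass, with a median log2 fold change of 0.78. Over all tested genes 6.46% were higher and 6.99% lower, with a median of 0.05. The list was chosen with earlier results of these data known. With limma-voom 6 were higher, beside 2498 of all 16771 genes. *OM66*, an ATPase gene of the outer mitochondrial membrane, had 10.2, 19.4 and 8.16 normalized counts in 0v and 225, 128 and 82.3 in 4v (log2 fold change 3.11, SE 0.44, adjusted *p* = 0.00772 from limma). *NDB2*, an alternative NADH dehydrogenase gene, had 75.1, 110.0 and 63.7 in 0v and 207, 294 and 207 in 4v (log2 fold change 1.48, SE 0.25, adjusted *p* = 0.0139 from limma), and *ABCB4*, an auxin transporter gene, had no read in any 0v library and 128, 48.2 and 59.6 normalized counts in 4v (adjusted *p* = 0.00478 from limma). *UGT74E2* and *AOX1A*, the alternative oxidase gene often taken as the marker of this response, had log2 fold changes of 0.80 and −0.15 (adjusted *p* = 0.101 and 0.761 from limma). The call of *NDB2* was lost without 4v replicate 2 (adjusted *p* = 0.0519 from limma). None of 12 listed proteasome subunit genes passed, with a median of 0.24 and 10 positive values. The groups did not overlap for 7 of them higher and 1 lower, beside 20.5% and 18.7% of all genes. At an unadjusted *p* under 0.05, *RPT2A* (0.60) and *PBA1* (0.40) were higher and *RPT5A* (−0.40) was lower, where 16.5% of all genes were higher and 15.5% lower. edgeR called none, and DESeq2 and limma-voom each called 1 lower, where they called 1389 and 2318 of all 16771 genes lower. *PAD1* had a log2 fold change of 0.30.

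A group of 7 members joins tethered proteins with others tied to cold and endoplasmic reticulum stress; further tethered members (*ANAC13*, *NAC017*, *NAC053*, *NAC078* and *ANAC016*) are described with the mitochondrial and senescence groups. The log2 fold changes of the 7 had both signs, and none passed. *NAC062* (*NTL6*), which is released from the plasma membrane in the cold and raises defence genes, had 123, 123 and 108 normalized counts in 0v and 180.0, 193 and 139 in 4v. The groups did not overlap (log2 fold change 0.51, SE 0.18, adjusted *p* = 0.109 from limma). *NAC091* (*TIP*), named for its binding to the coat protein of turnip crinkle virus, had 160.0, 129 and 127 in 0v and 515, 186 and 233 in 4v. All 4v libraries lay above 0v and replicate 1 stood far above the others, so that its log2 fold change, 1.01 with all libraries (SE 0.36, adjusted *p* = 0.107, limma), was 0.58 without that library. *NAC014* (*NTL2*), another tethered member, had 126, 123 and 152 in 0v and 85.3, 94.6 and 82.3 in 4v, without overlap and in the other direction (log2 fold change −0.59, SE 0.18, adjusted *p* = 0.0705 from limma).

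*NAC089*, which moves from the endoplasmic reticulum to the nucleus under stress, had a log2 fold change of 0.11 (95% interval −0.58 to 0.80). *NAC69* (*NTM2*) had −0.25. *NAC68* (*NTM1*), a regulator of cell division, had 17.1, 32.3 and 27.1 normalized counts in 0v and 0, 61.8 and 53.9 in 4v. Its log2 fold change of −0.21 turned to 1.10 without 4v replicate 1, which had no read (adjusted *p* = 0.141 from limma). *NAC035* (*LOV1*), a floral repressor linked to cold tolerance, had −0.01 (−1.14 to 1.12), an interval that spans a 2-fold change in either direction. Of *NAC68* 24.1% and of *NAC035* 22.1% of the 31-base words also occur in other genes. Of 10 endoplasmic reticulum stress genes none passed, with a median of 0.76. At an unadjusted *p* under 0.05, 5 were higher, beside 16.5% of all genes. The groups did not overlap for 6 higher and 1 lower, beside 20.5% and 18.7% of all genes. edgeR called none higher, DESeq2 2 and limma-voom 2, where they called 946, 1101 and 2498 of all 16771 genes higher. The chaperone genes *BIP2* and *BIP1* had log2 fold changes of 1.37 and 1.01 (adjusted *p* = 0.0677 and 0.078 from limma), *CNX1* of calnexin and the stress regulator *BZIP60* both 0.76. *BIP3* had no read in 0v and 9.14, 737 and 11.4 normalized counts in 4v, where 1 library held nearly all. *VIN3*, the vernalization gene that the tethered NAC protein NTL8 is known to activate, rose from 0, 0 and 1.05 normalized counts to 36.5, 76.2 and 122 (log2 fold change 4.10, SE 0.53, adjusted *p* = 0.00634 from limma).

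Among the boundary genes and targets of miR164, *NAC079* and *NAC100* had lower values in 4v and *NAC021* did not. *NAC079* (chr5:2435795-2437661) had 37.5, 100 and 80.8 normalized counts in 0v and 24.4, 28.4 and 28.4 in 4v. The groups did not overlap and the 0v libraries scattered (log2 fold change −1.21, SE 0.38, adjusted *p* = 0.0775 from limma). The test was passed without 0v replicate 1 (−1.60, adjusted *p* = 0.0322, limma), the 0v library nearest to 4v. Leaving out any other library gave adjusted *p* of 0.143 to 0.186 (limma), and the 4 shallow libraries 0.235. It passed with quantile normalization (0.0455) and limma-voom (0.0115), but not with edgeR (0.0593) or DESeq2 (0.0538). *NAC100* (chr5:24701062-24702787), a close relative, had 58.0, 48.4 and 34.7 in 0v and 0, 16.8 and 19.9 in 4v, where 4v replicate 3 rested on 7 reads. It had the most negative log2 fold change of the family, −1.99 (SE 0.71, adjusted *p* = 0.105 from limma), which was −1.17 without 4v replicate 1, the library with no read. The pair share at most 0.431% of their 31-base words, counted in *NAC079*, so that few reads would match both genes.

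*NAC021* (*NAC1*), which carries auxin signals to lateral roots, has as good a miR164 site and had 222, 236 and 342 normalized counts in 0v and 241, 306 and 307 in 4v (log2 fold change 0.11, 95% interval −0.38 to 0.60). Of its 31-base words, 34.5% also occur in other genes, of which *AT1G08087* on the opposite strand shares the most. *NAC92* (*ORE1*), the senescence regulator whose site has the most mismatches, had 259, 190.0 and 444 in 0v and 134, 281 and 148 in 4v (log2 fold change −0.65, SE 0.38, adjusted *p* = 0.286 from limma); in both groups the deep library was the highest. *NAC098* (*CUC2*), which with its relatives separates organs at the shoot tip, had 0, 3.23 and 2.11 in 0v and 12.2, 5.47 and 0 in 4v, too few to test. *NAC031* (*CUC3*), a boundary gene with no miR164 site, had at most 6 reads in any shallow library. Over the 4 tested members with a site, 3 values were negative and the median was −0.93, beside 15 negative values among all 43 tested members. None of the 4 passed. The sites are shown because of the 2 most negative of these values, so this summary is not separate evidence. An effect of miR164 was not tested. The genes of miR164 itself were not analysed here.

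**Figure D3:**
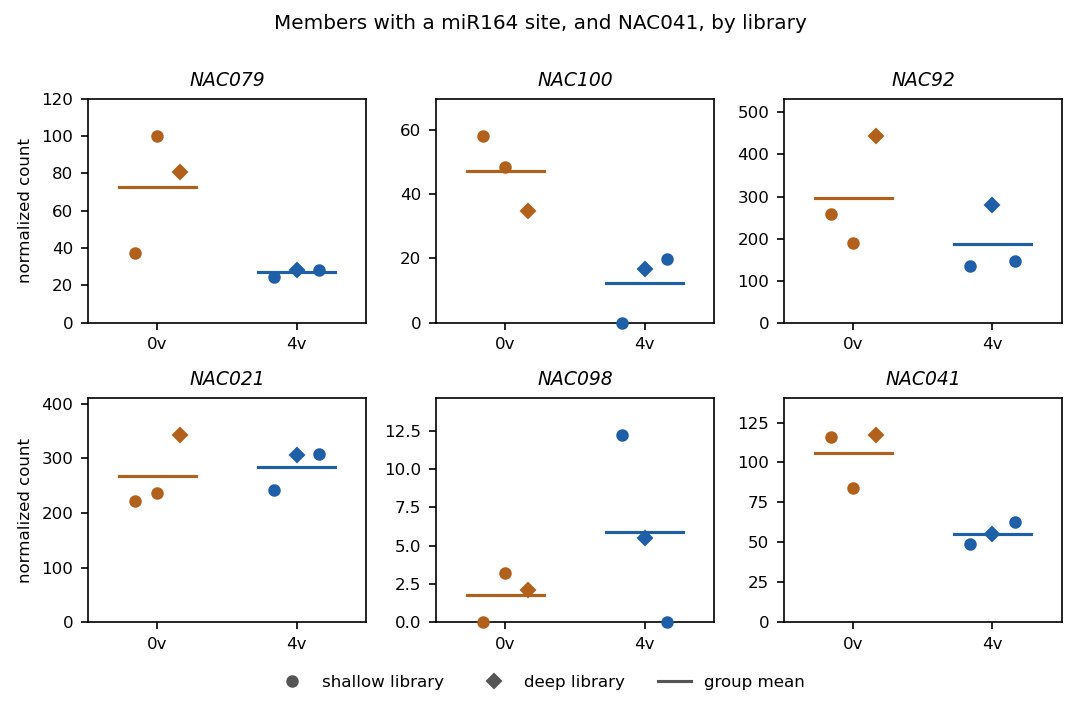
Normalized counts of the 5 members with a miR164 site and of *NAC041* in each library of 0v and 4v, one panel a gene, each axis from 0. Circles are shallow libraries, diamonds deep ones, and lines group means. *NAC079*, *NAC100* and *NAC041* show no overlap between groups, while *NAC92*, *NAC021* and *NAC098* do overlap.

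The senescence regulators did not move as a group, with 4 positive and 4 negative log2 fold changes among 8 tested and a median of 0.04. *NAC047* (*SHYG*), which drives the ethylene-dependent upward bending of petioles in flooded plants, had 61.4, 45.2 and 180.0 normalized counts in 0v and 201, 322 and 159 in 4v. The deep 0v replicate 3 lay among the 4v libraries. The log2 fold change of *NAC047* was 1.40 with all libraries (SE 0.51, adjusted *p* = 0.109, limma). Without 0v replicate 3 it was 1.97, which passed (adjusted *p* = 0.0116, limma), and the 4 shallow libraries alone also passed (1.69, adjusted *p* = 0.0225). Leaving out any other library gave adjusted *p* of 0.153 to 0.267 (limma), and edgeR gave 0.2, DESeq2 0.155 and limma-voom 0.211. *NAC59* (*ORS1*), a promoter of senescence, had 280.0, 281 and 328 in 0v and 329, 336 and 344 in 4v, groups that did not overlap by a margin of about 1 normalized count. *ANAC046*, the neighbour of *NAC047* on chromosome 3 and a regulator of chlorophyll breakdown, had a log2 fold change of 0.55 (95% interval −0.25 to 1.36).

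*NAC083* (*VNI2*), a repressor of vessel formation that also prolongs leaf life, was the second most abundant member and had 690.0, 652 and 494 normalized counts in 0v and 627, 619 and 557 in 4v (log2 fold change −0.01, 95% interval −0.40 to 0.37). It overlaps *AT5G00390* on the opposite strand but shares no 31-base word with another gene. *NAC029* (*NAP*), a central activator of leaf senescence, had a log2 fold change of 0.00 with an interval from −0.59 to 0.59. For both a 2-fold change lies outside the interval. *ANAC087* and *ANAC016* had values of 0.08 and −0.36 with intervals wider than 2-fold, and *JUB1*, which delays senescence, was below the filter at 0, 0 and 10 normalized counts in 0v and 15.2, 20.1 and 5.68 in 4v. Of 15 tested genes of senescence and chlorophyll breakdown 1 was higher, none was lower and 14 did not pass, with a median of 0.14. The share called higher is near that of all tested genes, 6.46%. edgeR called none higher and limma-voom 3, where they called 946 and 2498 of all 16771 genes higher. *NYE2*, which takes the magnesium from chlorophyll, had 0, 6.45 and 17.6 in 0v and 48.7, 60.4 and 51.1 in 4v (log2 fold change 2.56, SE 0.62, adjusted *p* = 0.0388 from limma), a call that was lost without any 1 library other than 0v replicate 3 (adjusted *p* up to 0.124), with 1 in place of 4 added before the log (adjusted *p* = 0.0755), with edgeR (0.0807), and with the 4 shallow libraries (0.0545). Its relative *NYE1* had 0.80 (adjusted *p* = 0.0522 from limma), *PAO* of the next steps 0.76 (adjusted *p* = 0.0893), and *HAI1*, a phosphatase gene of abscisic acid signalling, −2.19 (adjusted *p* = 0.142).

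**Figure D4:**
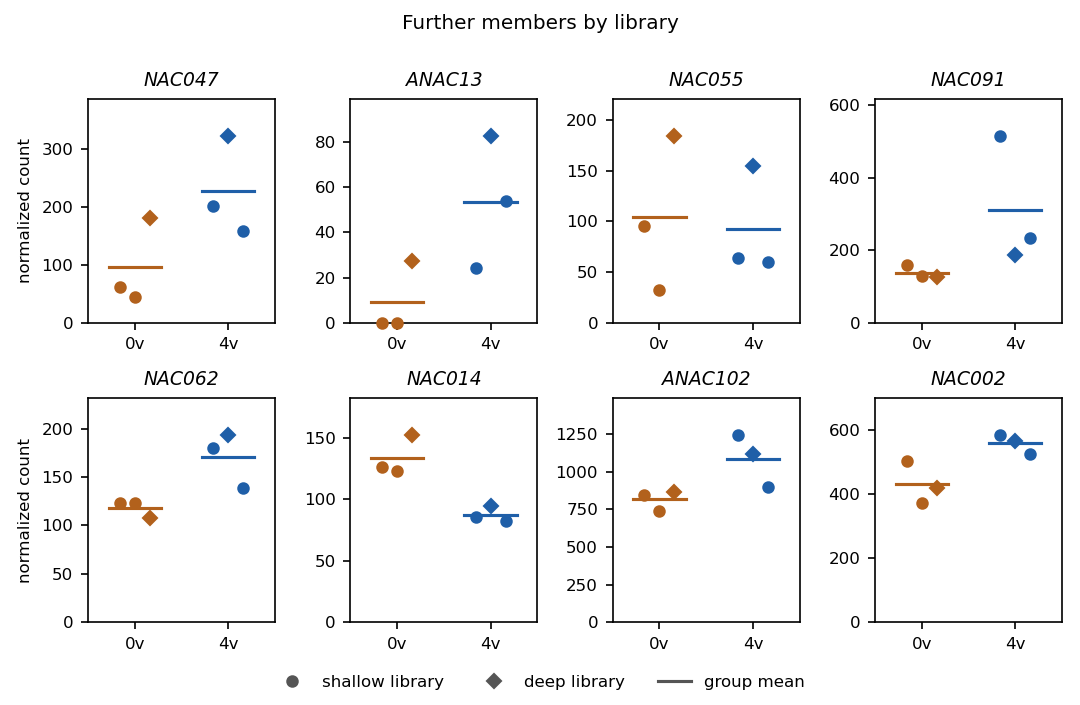
Normalized counts of 8 further members in each library of 0v and 4v, drawn as circles (shallow libraries), diamonds (deep libraries) and lines (group means), each axis from 0. The 0v diamond stands among the 4v values of *NAC047* and *ANAC13* and above those of *NAC055*, and the groups of *NAC091*, *NAC062*, *NAC014*, *ANAC102* and *NAC002* are apart.

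The members tied to abscisic acid and drought showed no difference beyond their spread. *NAC055*, which acts in abscisic acid and jasmonate responses, had 95.6, 32.3 and 184 normalized counts in 0v and 63.9, 154 and 59.6 in 4v, with the deep library the highest in each group (log2 fold change 0.00, 95% interval −1.47 to 1.48). *NAC019*, its close relative, was rarer and had 0.17 (−1.15 to 1.49). *RD26*, a non-member NAC gene of the same clade, fell from 229, 236 and 308 normalized counts to 137, 136 and 165 (log2 fold change −0.80, SE 0.18, adjusted *p* = 0.0301 from limma). That call was lost in 5 of the 6 fits that leave out 1 library, those other than 0v replicate 3 (adjusted *p* up to 0.106). The other non-members, *SOG1* of the DNA damage response and the tethered *NTL9*, had log2 fold changes of −0.16 and 0.12.

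Members with other known roles gave narrow or wide intervals according to their level. *NAC082*, which slows growth when ribosomes are made wrongly, had 307, 297 and 426 normalized counts in 0v and 405, 408 and 378 in 4v (log2 fold change 0.23, 95% interval −0.18 to 0.63). *NAC056* (*NARS1*) and *NAC018* (*NARS2*), which act together in the seed coat, had 0.31 and 0.39, and *ANAC050* and *ANAC052*, partners of the histone demethylase JMJ14, 0.12 and 0.09. *NAC010* (*SND3*), a secondary wall regulator, had −0.51 (−1.55 to 0.54), and *NAC105* (*VND3*), *NAC104* (*XND1*) and *ANAC075* were below the filter. Of 11 genes of the secondary wall and xylem in the table, 5 were tested and none passed, none being past an unadjusted *p* of 0.05 either. edgeR and DESeq2 called none and limma-voom 3 lower, where limma-voom called 2318 of all 16771 genes lower. The papain-like protease genes *XCP1* and *XCP2* had −1.40 and −1.09 (adjusted *p* = 0.163 and 0.16 from limma), *FLA11* −0.93 and *IRX10* −0.15. *ANAC036* had 0.94 (−0.46 to 2.34).

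**Figure D5:**
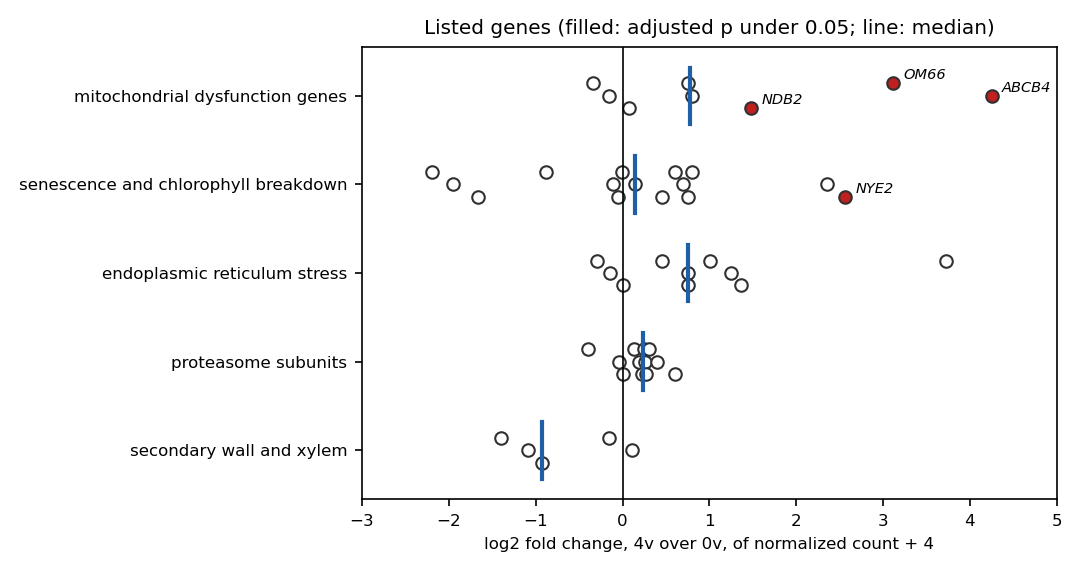
Log2 fold change, 4v over 0v, of the tested genes of 5 lists that go with NAC roles, on the scale of log2(normalized count + 4). Each point is a gene, filled points have an adjusted *p* under 0.05, and the vertical line is the list's median. The filled points are *OM66*, *NDB2* and *ABCB4* among mitochondrial dysfunction genes and *NYE2* among senescence genes.

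*NAC041* (*AT2G33480*, chr2:14180978-14182439, plus strand) was the single member that passed. It had 116, 83.9 and 117 normalized counts in 0v and 48.7, 54.9 and 62.5 in 4v, from 34, 26 and 445 reads and 16, 271 and 22 reads. All 4v libraries lay below all 0v libraries, and the deep and shallow libraries of a group lay close together. The mean went from 106 ± 18.9 (SD, n = 3) to 55.4 ± 6.88, and the log2 fold change was −0.88 (SE 0.22, 95% interval −1.40 to −0.35, adjusted *p* = 0.0449 from limma), 1.84-fold lower. It overlaps no other gene and shares no 31-base word with one. The log2 fold change was negative under each of 16 alternatives and past the threshold in 7 of them, with adjusted *p* from 0.00916 to 0.168. The call was lost without any 1 library other than 0v replicate 2, with log2 fold changes of −0.96 to −0.79 and adjusted *p* up to 0.13 from limma.

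The remaining tested members are ones for which no role is given here. *ANAC084* had 51.2, 41.9 and 46.3 normalized counts in 0v and 33.5, 25.1 and 34.1 in 4v, without overlap (log2 fold change −0.54, SE 0.27, adjusted *p* = 0.21 from limma). *NAC003*, *ANAC038*, *ANAC058* and *NAC001* had positive values of 0.52 to 0.69 with overlapping groups, and *ANAC027* and *ANAC074* had −0.17 and −0.01. *ANAC027* overlaps *AT1G64100* on the same strand. Of its 31-base words 80.1% occur in other genes, of which *AT1G64100* shares the most, so that the counts cannot be assigned to *ANAC027* alone.

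The 11 members below the filter had means of 1.15 to 9.64 normalized counts and at most 9 reads in any shallow library, and no member had reads in every library of one group and in none of the other. *NAC004* had 0, 9.68 and 3.42 normalized counts in 0v and 12.2, 18.8 and 11.4 in 4v, and *NAC104* had 6.83, 3.23 and 0.789 and then 9.14, 11.8 and 8.52; neither overlapped between groups. *ANAC048* went the other way, at 17.1, 6.45 and 7.10 in 0v and 0, 4.66 and 0 in 4v. These values rest on 0 to 5 reads in the shallow libraries, and a difference was not detectable at this depth. *ANAC044* (DNA damage response), *ANAC075*, *ANAC097* and *ANAC088* were also in this class.

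Several members are neighbours in the genome, 15 of the 54 lying next to another member. *ANAC016* and *NAC017* follow each other on chromosome 1, as do *ANAC050*, *ANAC052* and *NAC053* on chromosome 3. In the first pair *NAC017* had 120.0 normalized counts per kilobase over the 6 libraries and *ANAC016* 8.45. *ANAC046* and *NAC047* had 25.8 and 100 per kilobase and *NAC055* and *NAC056* 63.6 and 67.9, a gap far within the spread of *NAC055* between libraries, while *NAC68* and *NAC69* had 18.1 and 38.4. *ANAC016* shares at most 0.645% of its 31-base words with *NAC017*.

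The 250 bases upstream of each annotated start were searched on both strands for 4 short motifs that bear on cold and on NAC targets. CCGAC, the core of the element bound by CBF cold factors, was found in 4 of 54 members (7.41%) and in 12% of 27444 protein-coding genes. ACGTG, the core of the abscisic acid response element, was found in 17 (31.5%) against 22.9%, the evening element AAATATCT in 3 (5.56%) against 4.79%, and CTTGNNNNNCA, a short form of the mitochondrial dysfunction element, in 6 (11.1%) against 7.97%. These are letter matches, and their absence from this window says nothing about a factor. Windows of *ANAC13* (chr1:11911381-11911630, plus strand) and *NAC014* (chr1:11978623-11978872, minus strand) are shown because these tethered members had log2 fold changes of opposite sign and both held motifs, in capitals. *ANAC13* has 1 CCGAC and 1 ACGTG, and *NAC014* has 3 ACGTG, of which CACGTG counts on both strands.

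ANAC13: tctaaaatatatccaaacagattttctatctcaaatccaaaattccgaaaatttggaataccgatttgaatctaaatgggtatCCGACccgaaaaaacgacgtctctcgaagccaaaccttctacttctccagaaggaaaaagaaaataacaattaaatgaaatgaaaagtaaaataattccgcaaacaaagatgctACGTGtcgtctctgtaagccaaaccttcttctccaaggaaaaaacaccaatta

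NAC014: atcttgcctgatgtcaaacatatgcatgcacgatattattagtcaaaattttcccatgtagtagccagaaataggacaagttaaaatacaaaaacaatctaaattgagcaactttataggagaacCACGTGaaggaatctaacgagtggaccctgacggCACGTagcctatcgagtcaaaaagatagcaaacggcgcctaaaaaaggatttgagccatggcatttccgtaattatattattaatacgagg

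Within groups, no library was the highest for every member, but members were highest in the deep 4v library more often than all genes were. The deep 0v replicate 3 was the highest of its group for 18 of 43 tested members (41.9%, beside 38.4% of all genes), and the deep 4v replicate 2 for 21 (48.8%, beside 30.5%). The 4v replicate 2 was the lowest of its group for 6 members (14.0%, beside 32.3%). Of the 43, 12 (27.9%) were highest in both deep libraries, among them *NAC047*, *NAC055* and *NAC92*, beside 13.5% of all tested genes. Whether depth has a part in these orders was not tested.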

How the data were processed

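From poly(A) RNA the authors obtained paired reads of 75 bases, counted them per gene by Kallisto on TAIR10, and scaled each library with a DESeq2 size factor (tool versions: not given in the sources used here). Each deposited signal is a normalized count. Of 104984 values above 0, 104984 came out as whole reads (tolerance 0.05 of a read, plus a small allowance that grows with the count). The deposited fold changes, p-values and overall mean were not used, nor were 20 columns that carry no sample name and 1 row whose values are displaced. Groups and replicate numbers are those of the labels. Replicates were separate plates.

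log2(normalized count + 4) was fitted with limma 3.58.1 (R 4.3.3, trend) where the mean normalized count reached 10. Members and lists were chosen with earlier results of these data known. Named are members past an adjusted p of 0.05, up to 4 members of each role and 4 genes of each list with the smallest p, the 5 members with the highest mean, and VIN3; others were added after their values were seen. Alternatives were pseudocounts of 1 and 16, no filter, a filter at 50, quantile normalization, edgeR 4.0.16, DESeq2 1.42.0 and limma-voom on the recovered reads, a replicate block, the 4 shallow libraries and leaving out each library. Coordinates of all 54 members are the same in TAIR10.1. Sequence matches and shared 31-base words use the RefSeq annotation. Whether counting used strand: not given in the sources used here. Other NAC genes were not analysed here.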

Additional observations from a re-analysis of the deposited data

How the results depend on the processing

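The count of members higher in 4v (0) was also 0 with either pseudocount, without a filter, with a filter at a mean of 50, with quantile normalization, edgeR, DESeq2 and the replicate block. It was 3 with limma-voom (*ANAC036*, *NAC001* and *NAC062*) and 1 with the 4 shallow libraries (*NAC047*), and between 0 and 2 when 1 library was left out, with *ANAC13* and *NAC047* passing without 0v replicate 3. The count of members lower in 4v (1) was 0 without a filter, with DESeq2 and with the 4 shallow libraries, 2 with quantile normalization, 4 with limma-voom, and between 0 and 1 when 1 library was left out. The replicate numbers did not pair the samples (correlations of deviations of 0.065, −0.131 and −0.132), and with the replicate as a block the count of lower members was 0 and all genes gave 481 higher and 567 lower; the calls of *NYE2* (adjusted p = 0.0663 from limma), *SUC2* (0.085), *PYK10* (0.0664) and *RD26* (0.056) were lost as well. Over all genes, limma-voom called 2498 higher and 2318 lower, and leaving out 1 library gave 260 to 1521 higher where all 6 gave 1083. Of the 42 members that did not pass, 17 changed sign under at least 1 alternative without being called. The cause of these differences was not tested. In 17 tested members a shallow library held under 10 reads, and a 2-fold change could be bounded for 18 of 43.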
